A study of Saccharomyces cerevisiae with 8 samples.

Results

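Colonies of budding yeast were compared at an early and a late age on solid medium, Day 4 against Day 2, with 2 libraries on each side, 4 of the 8 libraries of the series. All cells were Saccharomyces cerevisiae BY4741, a MATa haploid that carries his3{delta}1 and leu2{delta}0 together with met15{delta}0 and also ura3{delta}0, so every group carried the same 4 auxotrophies and no group was treated. Cells had been taken from liquid medium in mid log phase, diluted, plated and collected 2 or 4 days later. The other 4 libraries came from the liquid culture (Log phase) and from Day 3 colonies. RNA ends were read by PAT-seq, which sequences the 3′ end of polyadenylated RNA together with part of the tail, so that 1 library gives a read count per gene, the number of reads that carry a tail and the mean tail length. Each of these was compared across all genes. The labels name a link between gene expression and alternative polyadenylation as the question of the series, and site choice was not analysed here. Whole colonies were extracted, so a lower level cannot be told apart from fewer cells that express the gene. Nothing in the labels says that the 2 libraries of a day came from separate plates, and p-values therefore measure only the spread between these libraries.

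A yeast colony is not uniform: cells at the margin still reach fresh nutrient while cells in the centre use up glucose and then live on ethanol, acetate and stored carbohydrate. Loss of glucose lowers protein kinase A and TORC1 signalling, which lowers transcription of genes for ribosomes and releases genes for respiration, gluconeogenesis and stress defence from repression. Poly(A) tails are shortened in the cytoplasm by the Ccr4-Not and Pan2-Pan3 deadenylases, and tailed stable RNAs in the nucleus are trimmed or degraded by the exosome.

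Total counts were 6203115 and 7957656 on Day 2 and 7908688 and 8147904 on Day 4. The median absolute difference between the libraries of a day was 0.26 on the log2 scale for Day 2 and 0.14 for Day 4. The deleted MET17 (met15) had 0 counts in all 8 libraries, and LEU2 and URA3 had between 0 and 10. MFA1, for the a-factor pheromone of MATa cells, had between 8873 and 14672 counts. Expression is given below as CPM, TMM-normalised counts scaled to library size, 1 value per library. Differences are log2 fold change, Day 4 over Day 2, ± SE. A gene is said to have risen or fallen, and enters the counts of higher and lower genes, when its adjusted p from edgeR's quasi-likelihood test was under 0.05.

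Of 5930 genes tested, 3734 (63%) changed between Day 2 and Day 4, 1811 (30.5%) upward and 1923 (32.4%) downward, around a median log2 fold change of 0.00. Changes over 2-fold numbered 1032 upward (17.4%) and 937 downward (15.8%). Both Day 4 libraries lay above both Day 2 libraries in 2382 of the genes tested and below them in 2394. Libraries of the 2 days did not overlap in 99.6% of the called genes. The Day 3 colonies, whose levels do not enter this difference, lay between the means of Day 2 and Day 4 in 88.7% of the genes that rose over 2-fold and in 93.7% of those that fell over 2-fold. By Day 3 the median gene of these classes had covered 69.3% of its rise and 64.8% of its fall on the log2 scale.

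The largest rise with at least 50 CPM was that of YDL218W, a gene of unknown function with 15.8 and 11.7 CPM on Day 2 and 359 and 309 CPM on Day 4, a log2 fold change of 4.61 ± 0.20 (edgeR adjusted p = 2.96e-13). DPA10 had 19.7 and 13.3 CPM on Day 2 and 349 and 409 CPM on Day 4 (4.53 ± 0.22). MF(ALPHA)1, which encodes the alpha-factor pheromone and is silent in textbook MATa cells, had 17.9 and 11.5 CPM on Day 2 and 281 and 229.7 CPM on Day 4 (4.14 ± 0.21). PDC6, a minor pyruvate decarboxylase, had 13.1 and 16.2 CPM on Day 2 and 208 and 229.9 CPM on Day 4 (3.89 ± 0.19). No overlap between days was a condition for the 10 rises named here. None of these 4 genes was above 20 CPM in a Day 2 library. The other 6 of the 10 largest rises were YJL047C-A (4.13 ± 0.24), MMO1 (4.04 ± 0.25), YER053C-A (3.68 ± 0.21), whose reads were assigned differently by the count and gene tables, AIM26 (3.64 ± 0.27), PHM7 (3.61 ± 0.17) and HBT1 (3.59 ± 0.24), which encodes a protein of mating projections.

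The largest fall was that of HXT4, a high-affinity glucose transporter, with 634 and 610.2 CPM on Day 2 and 32.7 and 15.2 CPM on Day 4, a log2 fold change of −4.70 ± 0.25 (edgeR adjusted p = 1.61e-12). IMD2, an IMP dehydrogenase of guanine nucleotide synthesis with near-identical paralogs, had 73.2 and 67.9 CPM on Day 2 and 4.85 and 5.67 CPM on Day 4 (−3.74 ± 0.22). ERG4, the last enzyme of ergosterol synthesis, had 586 and 444 CPM on Day 2 and 52.8 and 42.0 CPM on Day 4 (−3.44 ± 0.21). The largest falls were likewise taken only from genes without overlap between days. Of these 3 genes, the 2 Day 4 libraries differed most for HXT4. GAS1, a glucan-remodelling enzyme of the wall, had 807 and 868 CPM on Day 2 and 85.5 and 72.9 CPM on Day 4 (−3.40 ± 0.21). CYS3, which makes cysteine from cystathionine, had 416 and 485 CPM on Day 2 and 55.1 and 39.9 CPM on Day 4 (−3.24 ± 0.18). The remaining 5 were the ribosomal protein gene RPS9B (−3.14 ± 0.16), the glucose repressor MIG2 (−3.11 ± 0.23), the deoxyhypusine synthase DYS1 (−3.00 ± 0.18), the hexokinase HXK2 (−2.96 ± 0.18) and YBR191W-A (−2.93 ± 0.18).

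**Figure D1:**
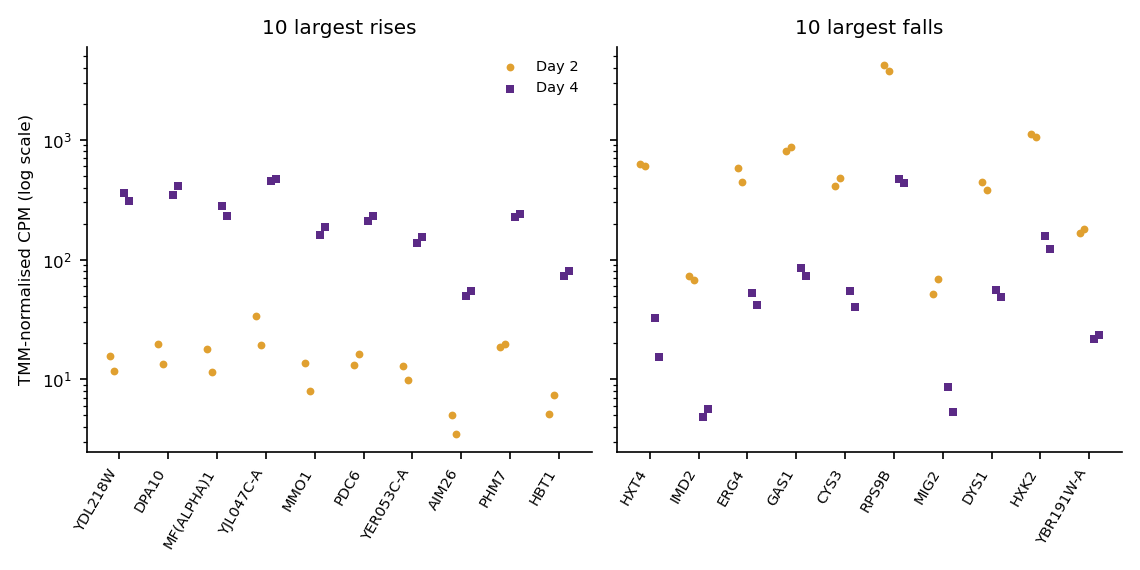
TMM-normalised CPM on a log axis in each Day 2 library (circles) and each Day 4 library (squares) for the 10 genes with the largest rise and the 10 with the largest fall, taken from called genes that reach 50 CPM on average in 1 of the 2 days. Only genes whose libraries of the 2 days do not overlap were eligible.

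Genes of the cytosolic ribosome fell together. Of 136 ribosomal protein genes 130 fell and 0 rose, with a median log2 fold change of −1.39 beside 0.00 over all genes tested. Many of them are pairs of near-identical paralogs, whose single values are uncertain. RPS9B had 4188 and 3780.4 CPM on Day 2 and 470.0 and 436 CPM on Day 4, and the next by p were RPL22A with 1659 and 1626 CPM on Day 2 and 325 and 293 CPM on Day 4 (−2.41 ± 0.14) and RPL9A with 867 and 1062 CPM on Day 2 and 167 and 149.8 CPM on Day 4 (−2.60 ± 0.16). All 3 were lower in both Day 4 libraries. Summed over the list, the mean CPM of the 136 genes was 155611 on Day 2 and 58287 on Day 4.

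Factors that build ribosomes fell as well. 97 of 149 ribosome biogenesis genes fell and 5 rose, with a median of −0.74. GAR1 and CBF5, of the H/ACA particles that make pseudouridine, fell. GAR1 had 127 and 116 CPM on Day 2 and 27.7 and 30.2 CPM on Day 4 (−2.06 ± 0.16), and CBF5 had a log2 fold change of −1.70 ± 0.16. NOP1, the fibrillarin methyltransferase, had 275 and 325 CPM on Day 2 and 95.7 and 82.7 CPM on Day 4 (−1.75 ± 0.16). Both groups of libraries were separate in each of these genes. The 5 members that rose were the methyltransferase BUD23 (0.88 ± 0.15), RRS1 (0.88 ± 0.17), the helicases DBP3 (0.98 ± 0.21) and SPB4 (0.59 ± 0.16), and UTP20 (0.75 ± 0.17). Without Day 2 replicate 2 the list had 80 lower and 13 higher, with a median of −0.55, and in tailed reads alone 8 were higher. Among subunits of RNA polymerases I and III 10 of 19 were lower and 1 higher, with a median of −0.53, and included the falling RPA43 (−2.17 ± 0.18) and RPC40 (−1.41 ± 0.15) and the rising RET1 (0.71 ± 0.16), a large subunit of RNA polymerase III. Without Day 2 replicate 2 the median of the polymerase subunits was −0.34 with 5 higher, and in tailed reads alone 3 were higher.

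The promoters of the biogenesis genes shared short sequences that the choice of the list did not use. GATGAG, the core of the PAC element, occurred on either strand within 300 bases upstream of the start codon in 131 of 148 biogenesis genes (88.5%) and in 1048 of all 5563 genes with a coding sequence (18.8%). AAAAATTT, the core of the RRPE element, occurred in 120 of them (81.1%) against 15.7% of all genes. The 3 windows below are those of the list members with the largest falls that hold the PAC core, from RefSeq sequence of the R64 assembly, with the core in capitals (as CTCATC where it lies on the other strand).
GAR1: aaatttttcgaGATGAGgaaaggaagaa
UTP8: aactttgatgaGATGAGgtcactgttaa
NOP1: aaattggaaagCTCATCtctcttgaatg
They lie at chrVIII:283407-283434 (minus strand), chrVII:750165-750192 (minus strand) and chrIV:427149-427176 (plus strand), each read in the direction of its gene. UTP8, an export factor for tRNA that is also part of the small-subunit processome, had 33.9 and 43.8 CPM on Day 2 and 9.94 and 12.2 CPM on Day 4 (−1.81 ± 0.21), with no overlap between days. Within the list, the 131 genes with the PAC core had a median log2 fold change of −0.72 and the 17 without it −0.98. For the RRPE core the medians were −0.81 with it and −0.55 without it, the other direction. The matches describe the list, and whether either core goes with the size of the fall was not tested.

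Translation factors and tRNA synthetases also fell. Of 36 initiation, elongation and release factors 29 fell, with a median of −0.94. They included the eIF5 gene TIF5, with 207 and 217 CPM on Day 2 and 50.5 and 45.6 CPM on Day 4 (−2.14 ± 0.16), and YEF3, the fungal elongation factor 3, with 294 and 421 CPM on Day 2 and 93.3 and 107 CPM on Day 4 (−1.84 ± 0.17). The only member that rose was SUI1 (0.48 ± 0.14), for eIF1, and without Day 2 replicate 2, 2 rose. Of 18 cytosolic aminoacyl-tRNA synthetases 17 fell and 1, DPS1 with −0.17 ± 0.14, was not called (adjusted p = 0.301). Their median, −1.75, was the lowest of the 40 lists. THS1, for threonine, had 866 and 679 CPM on Day 2 and 155 and 152 CPM on Day 4 (−2.33 ± 0.16), and ALA1, for alanine, had 116 and 98.5 CPM on Day 2 and 27.6 and 21.1 CPM on Day 4 (−2.14 ± 0.19). In both genes every Day 4 library was below every Day 2 library.

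**Figure D2:**
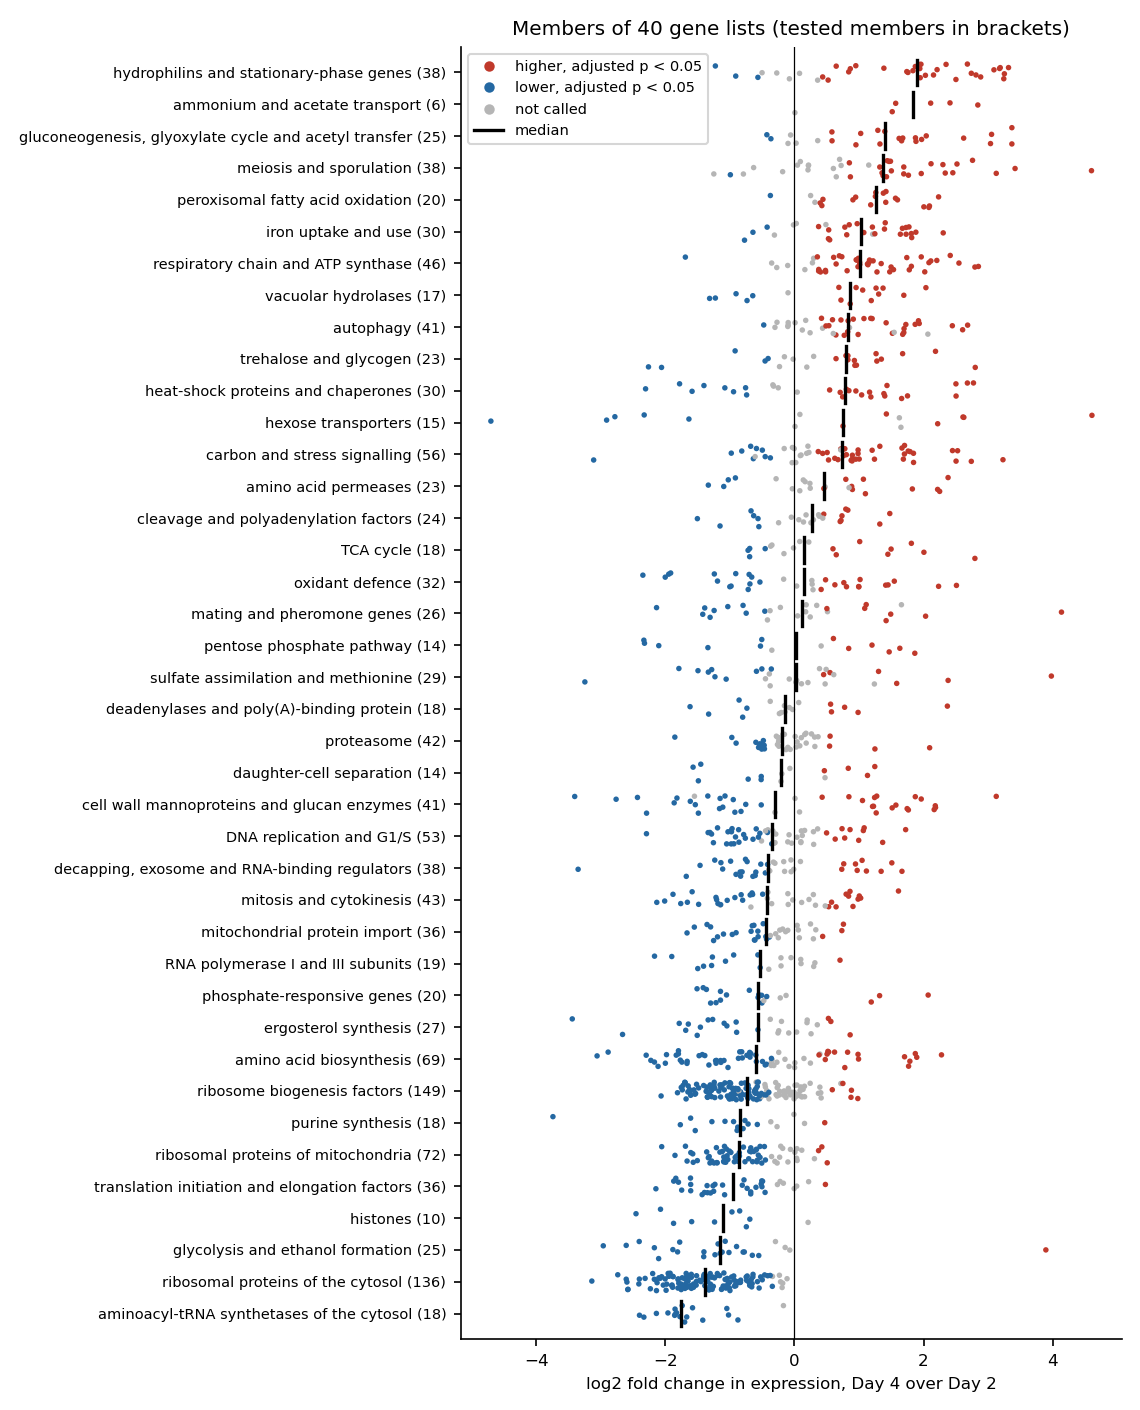
Log2 fold change in expression (Day 4 over Day 2) of each tested member of 40 gene lists, ordered by the list's median (bar). Red points rose, blue points fell and grey points were not called. Medians run from −1.75 for tRNA synthetases to 1.90 for hydrophilins and stationary-phase genes.

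Mitochondrial ribosomes and the respiratory chain went in opposite directions. Of 72 mitochondrial ribosomal protein genes, all nuclear, 55 fell and 3 rose, with a median of −0.85. MRPL1 had 74.1 and 60.4 CPM on Day 2 and 16.6 and 15.7 CPM on Day 4 (−2.05 ± 0.21), MRPL32 had a log2 fold change of −1.85 ± 0.22 and MRP51, of the small subunit, had 81.5 and 74.7 CPM on Day 2 and 26.2 and 22.2 CPM on Day 4 (−1.69 ± 0.19). In all 3 the days did not overlap. The 3 that rose were RSM23 (0.51 ± 0.17), MRPL16 (0.37 ± 0.16) and MRPS17 (0.43 ± 0.18). The calls of these small rises were lost in fits without 1 library, while the estimates stayed close to the main ones. Those fits gave RSM23, MRPL16 and MRPS17 0.42, 0.30 and 0.37 without Day 4 replicate 2. MRPL16 and MRPS17 stood at 0.44 and 0.47 without Day 4 replicate 1. MRPL16 stood at 0.37 without Day 2 replicate 1, and MRPS17 at 0.37 without Day 2 replicate 2. In tailed reads alone RSM23 was not called (0.12) and MRPS17 stood at −0.28. Genes for mitochondrial protein import were lower in 20 of 36 and higher in 3, with a median of −0.44, among them the import motor genes PAM16 (−1.66 ± 0.15) and MGE1 (−1.55 ± 0.16).

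Messages for mitochondrial ribosomal proteins are known in yeast as targets of the RNA-binding protein Puf3, which binds TGTANATA in the 3′ untranslated region. That sequence occurred on the sense strand within 200 bases after the stop codon in 71 of 72 of these genes (98.6%) and in 831 of all 5563 genes (14.9%). The sites of 5 members with large falls are printed here because the pattern is shared by nearly the whole list. They come from RefSeq sequence of R64, with the 8 matched bases in capitals.
MRPL1: cttttttaatTGTATATAtatatatact
MRPL32: aacttaagccTGTATATAgaaacttaat
MRP51: ttcagagttcTGTAAATAaataaagaaa
MRPL20: ataacaatcgTGTAAATActactctata
MNP1: gaatatatcaTGTAAATAtgtttaactc
The windows lie at chrIV:682669-682696 (minus), chrIII:119207-119234 (plus), chrXVI:327698-327725 (plus), chrXI:599050-599077 (minus) and chrVII:375740-375767 (plus), and the matches start between 27 and 79 bases after the coding sequence. PUF3 itself had 82.6 and 97.3 CPM on Day 2 and 202 and 188 CPM on Day 4, a rise of 1.12 ± 0.16 (edgeR adjusted p = 2.61e-06), with both Day 4 libraries above both Day 2 libraries. Over all genes with the sequence the median log2 fold change was −0.29, against 0.01 for genes without it. A match does not show that the protein was bound.

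Of 46 respiratory chain and ATP synthase genes 39 rose and 1 fell, with a median of 1.01. SDH1, the flavoprotein of succinate dehydrogenase, had 96.0 and 117 CPM on Day 2 and 761 and 719 CPM on Day 4 (2.80 ± 0.16). COX26, a small protein of the respiratory supercomplexes, had 606 and 439 CPM on Day 2 and 3847 and 3683 CPM on Day 4 (2.85 ± 0.16), COX7 had 1095 and 1090.1 CPM on Day 2 and 6463 and 6319 CPM on Day 4 (2.55 ± 0.15) and QCR8, of the cytochrome bc1 complex, had 577 and 529 CPM on Day 2 and 2279 and 2407 CPM on Day 4 (2.08 ± 0.15). All 4 were higher in each Day 4 library. The only member that fell was COX5B, the hypoxic form of cytochrome oxidase subunit 5, with 439 and 337 CPM on Day 2 and 118 and 123 CPM on Day 4 (−1.69 ± 0.16), while the aerobic form COX5A had 196 and 207 CPM on Day 2 and 942 and 917 CPM on Day 4 (2.21 ± 0.19). The TCA cycle was mixed: 8 of 18 rose, including KGD1 of ketoglutarate dehydrogenase (2.01 ± 0.15), and 4 fell, including IDH2 (−0.72 ± 0.14) of isocitrate dehydrogenase. Over all genes tested 30.5% rose and 32.4% fell. Without Day 2 replicate 2, 3 respiratory genes were lower, and in tailed reads alone 2 were.

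Enzymes for growth on acetate, ethanol and fatty acids rose. In the list of gluconeogenesis, the glyoxylate cycle and acetyl transfer 19 of 25 rose and 2 fell, with a median of 1.40. ICL1, isocitrate lyase of the glyoxylate cycle, had 79.0 and 83.6 CPM on Day 2 and 841 and 839 CPM on Day 4 (3.37 ± 0.16). ADH2, which oxidises ethanol, had 55.9 and 37.2 CPM on Day 2 and 467 and 489.6 CPM on Day 4 (3.37 ± 0.18), and YAT1, a carnitine acetyltransferase, had 318 and 351 CPM on Day 2 and 2679 and 2816 CPM on Day 4 (3.04 ± 0.15). The days did not overlap in these genes. ACS1 (3.05 ± 0.18), MLS1 (2.62 ± 0.18) and PCK1 (1.66 ± 0.14), of acetate activation, the glyoxylate cycle and gluconeogenesis, rose as well. The 2 that fell were ACS2, the acetyl-CoA synthetase used on glucose, at −0.43 ± 0.15, and the dicarboxylate carrier DIC1 (−0.36 ± 0.16). Of 20 genes of peroxisomal fatty acid oxidation 17 rose, with a median of 1.26: FOX2 had 92.2 and 87.0 CPM on Day 2 and 352 and 367 CPM on Day 4 (2.01 ± 0.15) and the acyl-CoA oxidase POX1 had 53.5 and 36.3 CPM on Day 2 and 187 and 194 CPM on Day 4 (2.09 ± 0.18). The 1 member that fell, PNC1 (−0.37 ± 0.14), encodes nicotinamidase. The calls of the members against the trend were weak: ACS2 was not called without Day 4 replicate 2 (−0.30), DIC1 without Day 2 replicate 2 (−0.27) or Day 4 replicate 1 (−0.22), and PNC1 without Day 2 replicate 1 (−0.18), Day 4 replicate 1 (−0.32) or Day 4 replicate 2 (−0.44). With the replicate number as a block DIC1 was not called either (−0.36).

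Glycolysis fell. Of 25 genes of glycolysis and ethanol formation 21 fell and 1, PDC6, rose, with a median of −1.15. ENO2, the main enolase, had 8086 and 7906 CPM on Day 2 and 1317 and 1312 CPM on Day 4 (−2.60 ± 0.14), and HXK2, the main hexokinase on glucose, had 1115 and 1055 CPM on Day 2 and 157 and 122 CPM on Day 4 (−2.96 ± 0.18). TPI1 had 6649 and 5027 CPM on Day 2 and 1341 and 1257 CPM on Day 4 (−2.17 ± 0.16) and FBA1, the aldolase and the highest of these on Day 2, had 24355 and 15674 CPM on Day 2 and 3772 and 3795 CPM on Day 4 (−2.40 ± 0.19). Every Day 4 value of these 4 genes was below every Day 2 value. Among 15 hexose transporters 5 fell and 6 rose, beside 32.4% lower and 30.5% higher over all genes tested. With HXT4 fell the low-affinity transporter HXT3, with 377 and 591 CPM on Day 2 and 61.9 and 67.0 CPM on Day 4 (−2.91 ± 0.18), as well as HXT2 (−2.78 ± 0.27), HXT1 (−1.63 ± 0.35) and HXT7 (−2.33 ± 0.15), the last nearly identical to HXT6, which was not called. HXT5, which is known to be made at slow growth, rose with 304 and 253 CPM on Day 2 and 1732 and 1701 CPM on Day 4 (2.62 ± 0.15), and the glucose sensor SNF3 rose too (1.42 ± 0.16).

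Several enzymes have a pair of genes of which 1 fell and the other rose, pairs chosen here after their values were seen. ADH1, the fermentative alcohol dehydrogenase, fell by 2.10 ± 0.15 while ADH2 rose, and PDC1 fell by 1.12 ± 0.15 while PDC6 rose. The pentose phosphate pathway had 6 of 14 genes higher and 6 lower, beside 30.5% higher and 32.4% lower over all genes tested. In that pathway GND1 had 921 and 1111 CPM on Day 2 and 199.8 and 204 CPM on Day 4 (−2.33 ± 0.16) and GND2 had 174 and 151 CPM on Day 2 and 600.5 and 585 CPM on Day 4 (1.86 ± 0.15). TAL1 fell by 1.34 ± 0.15 and its paralog NQM1 rose by 1.47 ± 0.15. The glutamate dehydrogenase GDH1 fell with 342 and 299.5 CPM on Day 2 and 105 and 83.4 CPM on Day 4 (−1.77 ± 0.16), and GDH3 rose with 1565 and 959.7 CPM on Day 2 and 4731 and 4658 CPM on Day 4 (1.89 ± 0.18), and the days did not overlap in either gene. Of the HSP70 genes SSA2 fell with 636 and 791 CPM on Day 2 and 143 and 146 CPM on Day 4 (−2.30 ± 0.16) and SSA3 rose with 899 and 461 CPM on Day 2 and 2308 and 2268 CPM on Day 4 (1.75 ± 0.22). Likewise SSE1 fell by 0.76 ± 0.15 and SSE2 rose by 1.18 ± 0.15, and of the glucan synthases FKS1 fell by 1.86 ± 0.22 and GSC2 rose by 1.24 ± 0.14. Reads of such paralogs can be split between them by alignment.

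**Figure D3:**
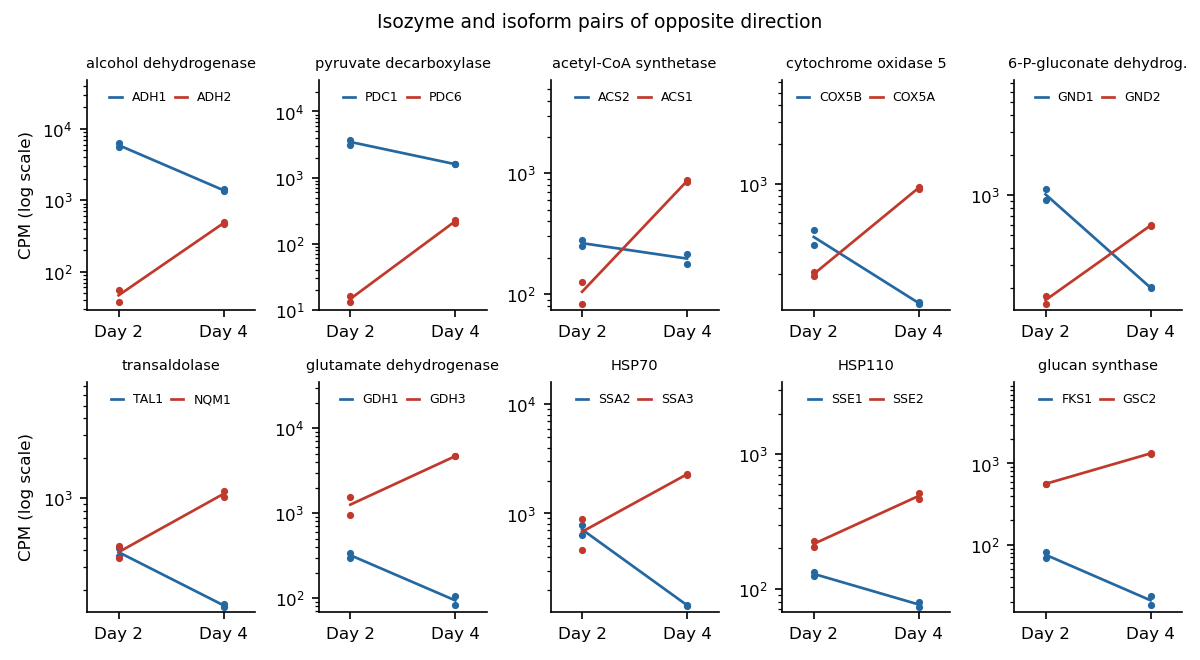
CPM on log axes, each panel with its own range, in the 2 Day 2 and the 2 Day 4 libraries (points; lines join the means) of 10 pairs of isozymes or isoforms chosen for opposite direction. Blue is the gene that fell and red the gene that rose; COX5A, ACS1 and GND2 were below their partner on Day 2 and above it on Day 4.

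Genes of the stationary phase, stress and stored carbohydrate mostly rose. The list of hydrophilins and stationary-phase genes had 30 of 38 higher and 3 lower, with the highest median of all lists, 1.90. SIP18, a hydrophilin, had 505 and 338 CPM on Day 2 and 4174 and 4217 CPM on Day 4 (3.32 ± 0.18), and GRE1, another, had 746 and 553 CPM on Day 2 and 5917 and 5827 CPM on Day 4 (3.18 ± 0.18). SNZ1, of vitamin B6 synthesis, had 76.0 and 88.2 CPM on Day 2 and 747 and 751 CPM on Day 4 (3.19 ± 0.16), and XBP1, a repressor made in quiescence, had 26.5 and 39.8 CPM on Day 2 and 199.8 and 247 CPM on Day 4 (2.74 ± 0.19). The days were separate in all 4. Its 3 falling members were NOP6 (−0.91 ± 0.16), which belongs to ribosome biogenesis, the carboxypeptidase inhibitor TFS1 (−1.22 ± 0.22) and PIL1 (−0.57 ± 0.17), the core protein of eisosomes. PIL1 was not called without Day 2 replicate 1 (−0.31) and stood at 0.33 in tailed reads alone. Without Day 2 replicate 2, 5 members were lower and the median of the list was 1.57.

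AGGGG, the stress response element bound by Msn2 and Msn4, occurred on either strand within 300 bases upstream of the start in 24 of 38 genes of that list (63.2%), in 30.3% of the genes that rose over 2-fold, in 16.7% of those that fell over 2-fold and in 22.5% of all 5563. Within the list the median log2 fold change was 1.80 in genes with the element and 2.25 in those without it. Over all 5563 genes the medians were 0.17 with it and −0.10 without it. The windows of 2 of the largest rises that hold the element are shown to place it. They come from R64, with the match in capitals (CCCCT on the other strand).
YDL218W: tgagaaAGGGGatatataccct
MMO1: cacgcccaCCCCTcacgggaataa
They lie at chrIV:66193-66214 and chrXI:356022-356045, both on the plus strand. MSN2 rose by 1.69 ± 0.19, and MSN4, whose assignment was uncertain, was not called at 0.19 ± 0.23.

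Heat-shock and chaperone genes were split, with 18 of 30 higher and 8 lower (median 0.78). BTN2, a sorting factor for misfolded protein, had 83.8 and 63.5 CPM on Day 2 and 485 and 519 CPM on Day 4 (2.77 ± 0.17), HSP30, of the plasma membrane, had 2080.4 and 1522 CPM on Day 2 and 10797 and 9633 CPM on Day 4 (2.50 ± 0.16), and HSP12 had 6454 and 4744 CPM on Day 2 and 14620.0 and 14644 CPM on Day 4 (1.39 ± 0.15). These rose without overlap, whereas the ribosome-bound HSP70 genes SSB1 (−1.58 ± 0.15) and SSB2 (−1.78 ± 0.15) fell, as did HSC82 (−1.08 ± 0.15), HSP60 (−0.94 ± 0.16) and HSP10 (−0.74 ± 0.15). Of 23 genes of trehalose and glycogen 13 rose and 5 fell (median 0.80): the glycogen-targeting subunit PIG2 had 112 and 75.4 CPM on Day 2 and 661 and 639 CPM on Day 4 (2.80 ± 0.19) and the trehalose synthase subunit TSL1 rose by 1.28 ± 0.15, while UGP1 (−2.06 ± 0.15) and PGM1 (−2.26 ± 0.30), which supply UDP-glucose, fell. In tailed reads alone the median of the trehalose and glycogen list was 0.46, and without Day 4 replicate 1, 3 of its genes were lower. Oxidant defence was even, with 13 of 32 higher and 14 lower, beside 30.5% higher and 32.4% lower over all genes tested. The catalase CTT1 had 214 and 164 CPM on Day 2 and 1026 and 1126 CPM on Day 4 (2.51 ± 0.16) and mitochondrial SOD2 rose by 1.55 ± 0.14, whereas of the cytosolic thioredoxin genes TRR1 (−1.92 ± 0.15) and TRX1 (−1.95 ± 0.16) fell and TRX2 was not called.

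Autophagy genes rose: 26 of 41 were higher and 1, ATG18 (−0.47 ± 0.19), was lower (median 0.83). ATG39, the receptor for autophagy of the nuclear envelope, had 21.9 and 29.0 CPM on Day 2 and 175 and 154 CPM on Day 4 (2.68 ± 0.18), ATG9 had 39.2 and 44.4 CPM on Day 2 and 166 and 154 CPM on Day 4 (1.93 ± 0.16) and ATG32, the mitophagy receptor, had 34.3 and 43.6 CPM on Day 2 and 125 and 129 CPM on Day 4 (1.70 ± 0.17). Each was higher in both Day 4 libraries. The fall of ATG18 was not called without Day 2 replicate 1 (−0.17), Day 4 replicate 1 (−0.57) or Day 4 replicate 2 (−0.40). ATG8 (2.45 ± 0.20) and ATG1 (2.61 ± 0.44) rose too, with uncertain read assignment. Vacuolar hydrolases had 11 of 17 higher, including PRB1 (1.06 ± 0.14) and PEP4 (0.96 ± 0.14), and 5 lower, including APE1 (−1.31 ± 0.16) and PRC1 (−0.73 ± 0.16). In the proteasome list 13 of 42 were lower, 4 higher and 25 not called, beside 32.4% lower and 30.5% higher over all genes tested. RPN4, the transcription activator of the proteasome genes, had 163 and 153 CPM on Day 2 and 666 and 685 CPM on Day 4 (2.09 ± 0.16), and the core subunit PRE9 fell by 1.85 ± 0.16.

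Biosynthetic pathways fell in part. 40 of 69 genes of amino acid biosynthesis fell and 16 rose (median −0.60). TRP3 (−3.06 ± 0.30), SER2 (−2.88 ± 0.24) and ASN2 with 984 and 851 CPM on Day 2 and 214 and 179 CPM on Day 4 (−2.22 ± 0.15) fell, whereas of the arginine genes named here CPA1 (1.77 ± 0.18), ARG1 (1.87 ± 0.18) and ARG3 (1.71 ± 0.40) rose and ARG4 (−0.68 ± 0.19), ARG7 (−0.82 ± 0.22) and ARG8 (−0.85 ± 0.30) fell. Without Day 2 replicate 1 the falls of ARG7 (−0.44) and ARG8 (−0.69) were not called, and neither were those of ARG4 without Day 2 replicate 2 (−0.42) or Day 4 replicate 1 (−0.57) and of ARG8 without Day 4 replicate 2 (−0.46). Without Day 4 replicate 2, 10 genes of amino acid biosynthesis rose. SER3, a phosphoglycerate dehydrogenase, had 133 and 117 CPM on Day 2 and 573 and 637 CPM on Day 4 (2.28 ± 0.16), and its paralog SER33 fell by 1.22 ± 0.15. Sulfate assimilation and methionine genes had 10 of 29 lower and 6 higher, shares near or below those of all genes (32.4% lower and 30.5% higher), with STR3, a cystathionine beta-lyase, among the higher (2.38 ± 0.23). Purine synthesis had 13 of 18 lower and 1 higher (median −0.84), and IMD4 (−1.77 ± 0.16) and ADE1 (−1.61 ± 0.16) fell with IMD2. Ergosterol synthesis had 14 of 27 lower and 3 higher (median −0.56), with ERG26 at 209 and 174 CPM on Day 2 and 28.9 and 31.6 CPM on Day 4 (−2.66 ± 0.17), and its activator ECM22 (0.86 ± 0.18) rose. Without Day 2 replicate 2 the ergosterol list had a median of −0.32 with 6 higher, without Day 4 replicate 2, 1 was higher, and in tailed reads alone 5 were. The 1 purine gene that rose was not called in tailed reads alone or without either Day 4 library.

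Most listed genes for ammonium, acetate and iron uptake rose. Of 6 ammonium and acetate transporters 5 rose: ADY2, an acetate transporter, had 87.6 and 69.6 CPM on Day 2 and 558 and 566 CPM on Day 4 (2.84 ± 0.17), and MEP2, the high-affinity ammonium permease, had 68.0 and 69.7 CPM on Day 2 and 302 and 293 CPM on Day 4 (2.11 ± 0.16). ATO2 and ATO3, related proteins tied in yeast colonies to ammonium export, rose by 2.41 ± 0.16 and 1.52 ± 0.19. In each of these the days did not overlap, and the remaining member, MEP3, was not called. Amino acid permeases had 10 of 23 higher, 4 lower and 9 not called, beside 30.5% higher and 32.4% lower over all genes tested. The proline permease PUT4 led the permeases (2.38 ± 0.15). Of 30 genes of iron uptake and use 22 rose and 3 fell (median 1.02): the siderophore transporter SIT1 had 321 and 448 CPM on Day 2 and 1216 and 1236 CPM on Day 4 (1.67 ± 0.16) and FET5, a multicopper oxidase of the vacuole, had 31.2 and 43.3 CPM on Day 2 and 119 and 129 CPM on Day 4 (1.73 ± 0.17). The iron-responsive list was not uniform, since the reductase FRE1 (−0.77 ± 0.17), the permease FTR1 (−0.42 ± 0.15) and the low-affinity FET4 (−0.64 ± 0.16) fell. FTR1 was not called without Day 4 replicate 1 (−0.40) or Day 4 replicate 2 (−0.45), and in tailed reads alone it stood at 0.02. Phosphate-responsive genes had 14 of 20 lower and 3 higher (median −0.56). PHO84, the high-affinity transporter, had 596 and 1256 CPM on Day 2 and 366 and 355 CPM on Day 4 (−1.36 ± 0.21) and the polyphosphate polymerase subunits VTC2 (−1.41 ± 0.15), VTC3 (−1.14 ± 0.17) and VTC4 (−1.14 ± 0.18) fell, while the sodium-coupled PHO89 rose with 86.6 and 74.4 CPM on Day 2 and 329 and 347 CPM on Day 4 (2.07 ± 0.16).

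Histone genes fell in 9 of 10 cases (median −1.10), with several near-identical copies. HTA2, for H2A, had 896 and 1066 CPM on Day 2 and 186 and 172 CPM on Day 4 (−2.45 ± 0.15), and HTZ1, the H2A.Z variant, was not called at 0.21 ± 0.14. Among genes of DNA replication and the G1/S step 24 of 53 were lower and 10 higher (median −0.35), beside 32.4% lower and 30.5% higher over all genes tested. The list included the PCNA gene POL30 with 129.5 and 113 CPM on Day 2 and 46.1 and 51.9 CPM on Day 4 (−1.31 ± 0.17) and the rising ribonucleotide reductase isoform RNR3 (1.72 ± 0.28). Of 43 genes of mitosis and cytokinesis 19 fell and 11 rose, beside 32.4% lower and 30.5% higher over all genes tested. Of the tubulin genes TUB2, for beta-tubulin, fell with 345 and 382 CPM on Day 2 and 130.5 and 112 CPM on Day 4 (−1.58 ± 0.15), together with the mitotic cyclin CLB1 (−1.88 ± 0.17) and the myosin MYO1 (−2.01 ± 0.24), and the cyclin-kinase inhibitor SIC1 rose with 60.2 and 71.2 CPM on Day 2 and 138 and 131 CPM on Day 4 (1.03 ± 0.17). Genes of daughter-cell separation had 6 of 14 lower and 4 higher, beside the same shares of all genes. The chitinase CTS1 was among the higher (1.25 ± 0.17).

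Beside 30.5% higher and 32.4% lower over all genes tested, wall genes were divided, 18 of 41 higher and 19 lower. CCW12, the most abundant of them on Day 2, had 9194 and 7987 CPM on Day 2 and 1631 and 1557 CPM on Day 4 (−2.43 ± 0.15), and CIS3 had 456 and 617 CPM on Day 2 and 75.1 and 83.3 CPM on Day 4 (−2.76 ± 0.18). SPI1, a wall protein of the weak-acid and stationary-phase response, rose with 1046 and 805 CPM on Day 2 and 3420.1 and 3355 CPM on Day 4 (1.87 ± 0.15). The flocculin genes FLO1 (1.75 ± 0.30), FLO5 (1.28 ± 0.24), FLO9 (1.23 ± 0.22) and FLO10 (2.16 ± 0.35), which share repeats, rose from low levels, FLO1 with 5.62 and 15.6 CPM on Day 2 and 37.0 and 35.9 CPM on Day 4. Mating genes had 7 of 26 higher and 9 lower, near the 30.5% and 32.4% of all genes. The alpha-agglutinin gene SAG1, alpha-specific like MF(ALPHA)1, had 18.6 and 16.9 CPM on Day 2 and 72.0 and 72.7 CPM on Day 4 (2.03 ± 0.19), while the a-specific receptor gene STE2 and the protease gene BAR1 fell (−1.03 ± 0.15 and −1.24 ± 0.15). The a-factor gene MFA1 was not called at 0.18 ± 0.14. Of 38 meiosis and sporulation genes, which haploid cells do not normally use, 23 rose and 1 fell (median 1.37), most at low levels: IME1, the inducer of meiosis, had 21.5 and 23.1 CPM on Day 2 and 61.6 and 64.9 CPM on Day 4 (1.50 ± 0.19) and RIM4 had 13.9 and 9.84 CPM on Day 2 and 55.6 and 63.3 CPM on Day 4 (2.34 ± 0.23). Over all genes tested 30.5% rose and 32.4% fell, and genes under 5 CPM of any function had a median of 1.05. The median level of the list was 5.62 and 5.80 CPM in the Day 2 libraries. The filter on low counts keeps a gene that is high enough on Day 4 alone. How far this moves the median of the list was not tested.

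Regulators of carbon and stress responses were higher in 35 of 56 and lower in 9 (median 0.74). CAT8, the activator of gluconeogenic genes, had 92.1 and 53.4 CPM on Day 2 and 404 and 431 CPM on Day 4 (2.53 ± 0.20), and its target factor SIP4 had 7.80 and 5.27 CPM on Day 2 and 52.1 and 69.0 CPM on Day 4 (3.23 ± 0.25). HAP4, the limiting activator of respiratory genes, rose by 2.50 ± 0.18 with uncertain assignment. The libraries of the 2 days were separate in CAT8 and SIP4. The repressor MIG1 rose with 30.4 and 27.4 CPM on Day 2 and 94.5 and 93.6 CPM on Day 4 (1.70 ± 0.18) while its homolog MIG2 fell with 51.7 and 68.7 CPM on Day 2 and 8.67 and 5.34 CPM on Day 4. The cyclic AMP phosphodiesterase PDE2 fell (−0.98 ± 0.21), and the kinase gene SNF1, at −0.16 ± 0.15, was not called.

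Genes near chromosome ends were more often higher than lower. Within 10 kb of an end 53 of 97 tested genes were higher and 10 lower, with a median log2 fold change of 0.85, and from 10 to 20 kb it was 53 of 112 with a median of 0.81. Beyond 50 kb it was 1530 of 5258, with a median of −0.05. These genes have low levels, and genes under 5 CPM had a median of 1.05 wherever they lay. The filter on low counts keeps a gene that is high enough in the libraries of 1 day alone. Low genes may thus have entered through their Day 4 values, and how far this moves the medians was not tested. Among genes of at least 20 CPM, 22 of 34 within 10 kb were higher, with a median of 0.59, against 1240 of 4174 beyond 50 kb, with a median of −0.09. AAD10, a putative aryl-alcohol dehydrogenase, had 97.9 and 56.8 CPM on Day 2 and 629 and 664 CPM on Day 4 (3.07 ± 0.19). IMD2, also near an end, went the other way. Dubious open reading frames, with a median of 1.63 CPM on Day 2, were higher in 93 of 254 cases and lower in 19, with the same limit from the filter.

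Poly(A) tails were shorter on Day 4. The median tail over genes was 20.3 and 20.5 nt in the Day 2 libraries and 18.1 and 17.9 nt in the Day 4 libraries, a difference of −2.42 nt without overlap. The exact two-sided permutation p was 0.333, the smallest that 2 against 2 allows. That median gives every gene equal weight. As a mean weighted by each library's own tailed reads the difference was −2.06 nt. With the same Day 2 gene weights in every library that mean differed by −1.36 nt. In limma's fit 1774 of 5388 genes (32.9%) changed, 51 (0.947%) to longer and 1723 (32%) to shorter tails, and the median change over all of them was −2.17 nt. The count rests on all 4 libraries: leaving out any 1 of them lowered it, to 685 without Day 4 replicate 2, 861 without Day 4 replicate 1, 1023 without Day 2 replicate 2 and 1036 without Day 2 replicate 1. With each library's median subtracted, 266 genes were longer and 144 shorter.

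The largest shortening among genes of at least 50 CPM was that of RSA3, a factor of 60S assembly, with 26.1 and 23.5 nt on Day 2 and 12.8 and 13.5 nt on Day 4, a change of −11.7 ± 1.02 nt (limma adjusted p = 0.00336). NOP16, also of 60S assembly, had 21.9 and 26.5 nt on Day 2 and 15.8 and 12.6 nt on Day 4 (−10.2 ± 1.58 nt), and MRS3, a mitochondrial iron carrier, had 29.6 and 26.7 nt on Day 2 and 17.5 and 18.7 nt on Day 4 (−10.1 ± 1.16 nt). None of these overlapped between days, as was so in 70.4% of all genes tested for tail length and 99.9% of those called. MRPL24 (−9.45 ± 1.43 nt), EMW1 (−9.16 ± 2.40 nt) and RPL1B (−9.04 ± 1.76 nt) completed the 6 largest. The longest increase was that of FKS1, the glucan synthase whose level fell, with 19.8 and 20.6 nt on Day 2 and 27.3 and 26.6 nt on Day 4 (6.65 ± 1.55 nt, limma adjusted p = 0.0152). EIS1, an eisosome protein, had 21.4 and 21.8 nt on Day 2 and 27.1 and 27.7 nt on Day 4 (5.80 ± 0.800 nt), and NUP188, of the nuclear pore, had 20.7 and 22.3 nt on Day 2 and 27.6 and 26.5 nt on Day 4 (5.58 ± 1.07 nt). The days were separate here too, and TOH1 (5.11 ± 0.920 nt), RPL35B (4.26 ± 0.933 nt) and DMO2 (4.15 ± 1.20 nt) followed. Of these 12 genes RSA3, NOP16, MRS3, MRPL24, RPL1B, EIS1 and NUP188 were called whichever library was left out. DMO2 was not called without any 1 of the 4 libraries (limma adjusted p from 0.0659 to 0.118), with changes from 3.73 to 4.74 nt. FKS1 was not called without Day 4 replicate 1 (6.31 nt) or replicate 2 (6.94 nt). RPL35B was not without Day 2 replicate 1 (3.23 nt), Day 4 replicate 1 (4.14 nt) or Day 4 replicate 2 (4.38 nt), nor TOH1 without Day 4 replicate 2 (4.10 nt). EMW1 was −3.23 nt without Day 2 replicate 2, −9.30 nt without Day 4 replicate 1 and −9.04 nt without Day 4 replicate 2, not called in any of these.

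Median tail changes of the gene groups ran from near 0 to beyond the median of all genes. Over the cytosolic ribosomal proteins the median was −0.579 nt, with 22 of 135 shorter and 6 longer, and over glycolysis it was −0.0679 nt, with 3 of 25 shorter. Translation factors had a median of −0.445 nt and chaperones one of −0.544 nt. Autophagy genes had −2.74 nt with 17 of 36 shorter, phosphate-responsive genes −2.86 nt with 9 of 19, and daughter-cell separation −3.53 nt with 9 of 14. Respiratory genes, which rose, had −2.02 nt with 20 of 43 shorter, and mitochondrial ribosomal proteins, which fell, −2.25 nt with 23 of 72, near the −2.17 nt and the 32% shorter of all genes. By level, the 1044 genes with the lowest expression had a median change of −2.49 nt and the 1044 with the highest −1.54 nt. With each library's median subtracted all of these medians move up, and those of respiratory genes and mitochondrial ribosomal proteins become 0.398 and 0.165 nt. The medians nearest 0 moved with single libraries: without Day 2 replicate 2 that of glycolysis was 0.123 nt and that of translation factors −0.104 nt, against −0.571 and −1.03 nt without Day 2 replicate 1.

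Tail change and expression change were only loosely related. Tails were shorter in 587 of the 1516 genes whose level rose (38.7%), with a median of −2.51 nt, and in 470 of the 1873 whose level fell (25.1%), with a median of −1.65 nt. Of the 45 genes with longer tails that were also tested for expression, 34 fell in level and 4 rose. Across 5218 genes, which share the same libraries and are not independent, Spearman's rho between the 2 changes was −0.18. ENO2 joined a fall in level with a tail of 9.42 and 9.74 nt on Day 2 and 12.4 and 12.9 nt on Day 4 (3.08 ± 0.492 nt), and SIP18 a rise in level with 14.4 and 16.0 nt on Day 2 and 10.7 and 10.8 nt on Day 4 (−4.43 ± 0.797 nt). Neither gene's tails overlapped between days.

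**Figure D4:**
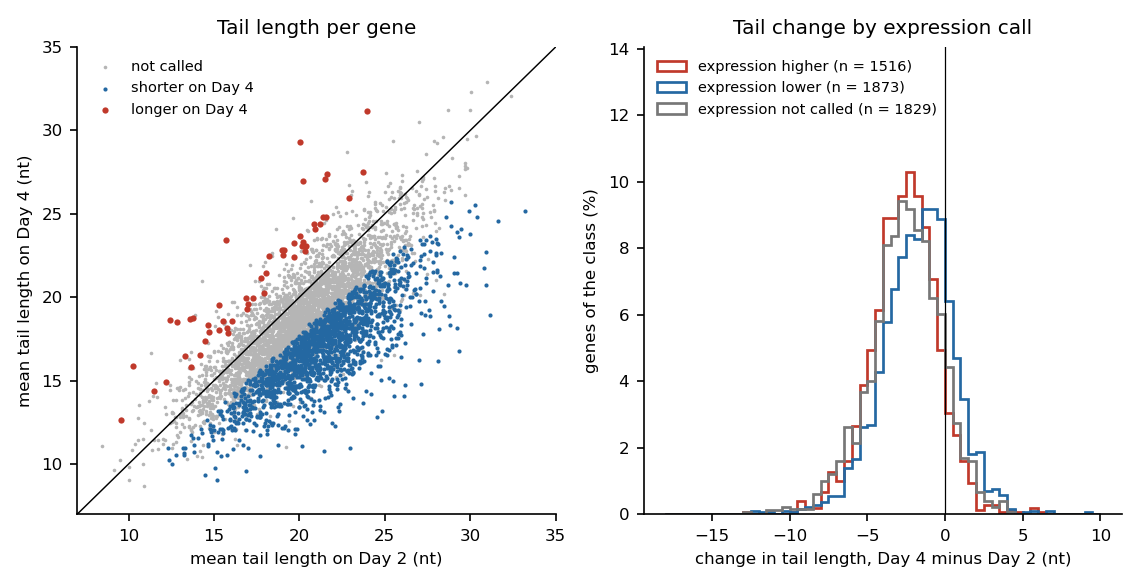
Left, mean tail length in nt on Day 2 (x) and Day 4 (y), 1 point per gene, blue where the tail was shorter, red where it was longer and grey where not called; the line marks equality. Right, the change in tail length in nt for genes whose expression rose, fell or was not called, as a percent of each class; the class that fell lies farthest to the right, with a median of −1.65 nt.

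The share of reads with a tail was lower in both Day 4 libraries. Over genes assigned alike by both tables it was 40.9% and 39.3% in the Day 2 libraries and 38.2% and 37.6% in the Day 4 libraries, a difference of −2.17 percentage points (exact two-sided permutation p = 0.333, the smallest possible). Over all entries of both tables the difference was −0.774 points. By gene, edgeR called 1169 of 4380 (26.7%), 192 with a higher share (4.38%) and 977 with a lower one (22.3%), and the median change in the log2 odds of a tail was −0.28. With tailed and untailed reads scaled to their own totals, 492 were higher and 428 lower. The count was 749 without Day 4 replicate 1, 750 without Day 2 replicate 1 and 599 without Day 4 replicate 2.

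CPS1, a vacuolar carboxypeptidase, had a tailed share of 73.8% and 68.9% on Day 2 and 36.3% and 38.4% on Day 4, a change in log2 odds of −2.06 ± 0.25 (edgeR adjusted p = 4.41e-07). PHO8, the vacuolar phosphatase, had 64.5% and 46.8% on Day 2 and 25.0% and 22.7% on Day 4 (−1.98 ± 0.28), and NAB2, a nuclear poly(A)-binding protein, had 49.7% and 32.8% on Day 2 and 14.2% and 14.9% on Day 4 (−1.97 ± 0.32). The days did not overlap in these genes, as was so in 62.1% of all genes tested for share and 99.7% of those called. The Day 2 libraries differed most for NAB2 and PHO8. The other large decreases in log2 odds were −2.03 ± 0.35 for KAR4, −1.79 ± 0.32 for NAT2 and −1.77 ± 0.21 for TMT1. CYC1, iso-1-cytochrome c, had the largest increase, with 2.31% and 4.12% on Day 2 and 8.59% and 11.0% on Day 4 (1.76 ± 0.23), and EIS1 had 39.3% and 36.8% on Day 2 and 62.2% and 63.4% on Day 4 (1.45 ± 0.21). RRP14, CHS1, CCS1 and DFG5 rose by 1.62 ± 0.30, 1.50 ± 0.23, 1.48 ± 0.20 and 1.47 ± 0.21. EIS1 and HSP104 were the only genes higher on all 3 readouts, with levels up by 1.76 ± 0.19 and 0.71 ± 0.14 and an HSP104 tail of 16.1 and 14.9 nt on Day 2 and 18.6 and 18.5 nt on Day 4 (3.05 ± 0.764 nt). The HSP104 tail was not called without Day 2 replicate 2 (2.43 nt), Day 4 replicate 1 (3.00 nt) or Day 4 replicate 2 (3.09 nt). Fewer reads with a tail went loosely with shorter tails: Spearman's rho of the 2 changes was 0.25 across 4286 genes. Both changes rest on the same reads and on a rule for a tail that is not given. How far that alone links the 2 was not tested.

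Tailed reads on small nucleolar, small nuclear and ribosomal RNAs rose. In a separate edgeR fit on tailed reads alone, 3518 of 6103 entries (57.6%) changed, 1763 upward (28.9%) and 1755 downward (28.8%). Of 73 small nucleolar RNAs 64 rose and 1, SNR33, fell (−1.22 ± 0.19), with a median log2 fold change of 2.15, and of small nuclear RNAs 5 of 5 rose. They took 0.172% and 0.135% of tailed reads on Day 2 and 0.692% and 0.746% on Day 4 for snoRNAs, without overlap. SNR24, a C/D-box snoRNA inside an intron of ASC1, had 30.6 and 22.0 tailed CPM on Day 2 and 789 and 871 tailed CPM on Day 4 (4.99 ± 0.20, edgeR adjusted p = 3.47e-14), SNR4 had 32.9 and 31.7 tailed CPM on Day 2 and 712 and 714 tailed CPM on Day 4 (4.46 ± 0.19) and SNR40 had 49.7 and 34.6 tailed CPM on Day 2 and 835 and 1012 tailed CPM on Day 4 (4.46 ± 0.20). LSR1, the U2 snRNA, had 50.7 and 39.0 tailed CPM on Day 2 and 464 and 440.4 tailed CPM on Day 4 (3.34 ± 0.19). In each of them both Day 4 libraries exceeded both Day 2 libraries.

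Ribosomal RNA entries rose in 8 of 9 cases, and their share went from 0.207% and 0.158% of tailed reads on Day 2 to 0.841% and 0.846% on Day 4. The merged 35S entry, RDN18-1/RDN25-1/RDN37-1/RDN58-1, had 1447 and 1004 tailed CPM on Day 2 and 6985 and 6809 tailed CPM on Day 4 (2.49 ± 0.17). Of 208 tRNA entries tested 45 rose (21.6%, against 28.9% of all entries) and 8 fell, against 28.8% of all entries. The share of tailed reads on tRNA entries was 0.140% and 0.098% on Day 2 and 0.213% and 0.225% on Day 4, without overlap. The median log2 fold change of the tRNA entries was 0.55, beside 0.03 over all entries. The largest rise among tRNA entries was that of the serine tRNA gene SUP16, which had 7.57 and 9.17 tailed CPM on Day 2 and 141 and 161 tailed CPM on Day 4 (4.16 ± 0.27). Reads of repeated rRNA and tRNA genes and of intronic snoRNAs can be shared with other genes. Whether the tail of such a read was added after transcription was not tested.

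**Figure D5:**
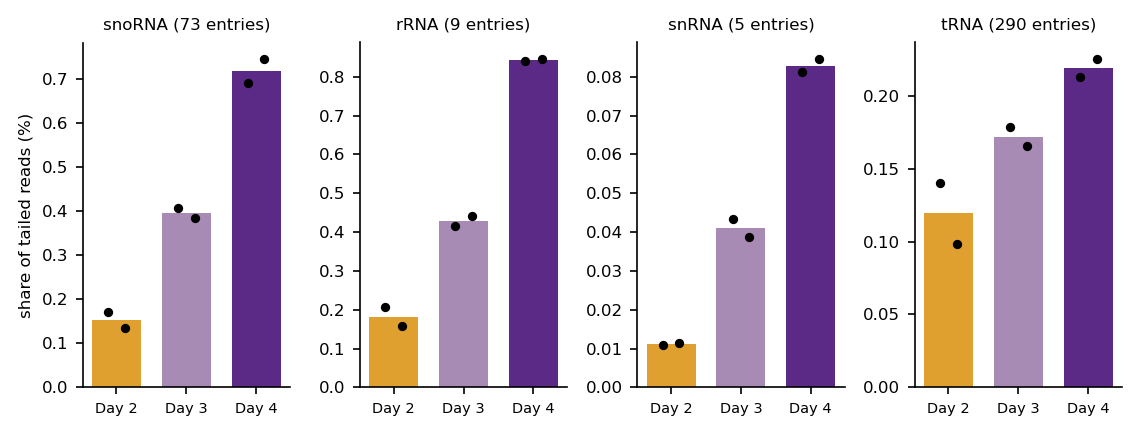
Share of all tailed reads (%) on snoRNA, rRNA, snRNA and tRNA entries in Day 2, Day 3 and Day 4 colonies; bars are means of 2 libraries and points the libraries. In each of these classes the Day 3 libraries lie between those of Day 2 and Day 4.

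Cleavage and polyadenylation genes and deadenylase and poly(A)-binding genes were called in both directions, in shares near those of all genes (30.5% higher and 32.4% lower). Of 24 cleavage and polyadenylation factors 8 were higher and 6 lower (median 0.28). In tailed reads alone 4 were higher and 3 lower, with a median of 0.10, and without Day 2 replicate 1 the median was 0.14. NRD1, of the Nrd1-Nab3 complex that ends snoRNA transcripts, had 44.5 and 53.6 CPM on Day 2 and 104 and 142 CPM on Day 4 (1.32 ± 0.19), NAB3 rose by 1.48 ± 0.23 with uncertain assignment, and YTH1, a zinc-finger subunit of the cleavage factor, had 27.8 and 24.6 CPM on Day 2 and 7.86 and 10.6 CPM on Day 4 (−1.50 ± 0.25). The poly(A) polymerase PAP1 was not called at −0.05 ± 0.24. Of 18 deadenylase and poly(A)-binding genes 5 rose and 5 fell. PAB1, the poly(A)-binding protein, had 761 and 880.5 CPM on Day 2 and 1244 and 1199.6 CPM on Day 4 (0.57 ± 0.14), CCR4 had 25.3 and 40.5 CPM on Day 2 and 73.5 and 57.8 CPM on Day 4 (0.99 ± 0.21) and POP2, its partner nuclease, had 85.1 and 91.7 CPM on Day 2 and 52.8 and 48.7 CPM on Day 4 (−0.80 ± 0.16). The days were separate in these genes, and PAN2 (−0.37 ± 0.21) and PAN3 were not called. Among decapping, exosome and RNA-binding genes 9 of 38 rose and 19 fell (median −0.41), a greater part lower than the 32.4% of all genes. The decapping enzyme DCP2 fell by 0.99 ± 0.15, PUF4 rose by 1.67 ± 0.25, the nuclear exosome nuclease RRP6 was not called, and of the TRAMP complex, which adds tails to nuclear RNA for decay, AIR1 (−1.67 ± 0.27) and the helicase MTR4 (−0.83 ± 0.17) fell. In a fit on tailed reads alone NRD1 (0.47), PAB1 (0.35), CCR4 (0.15) and POP2 (−0.09) were not called, with adjusted p of 0.0887, 0.0516, 0.658 and 0.736.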

How the data were processed

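Total RNA of 8 PAT-seq libraries was read with 75-base SOLiD chemistry, per the labels' protocols. Not given in the sources used here are the aligner, the build, the annotation, strand handling and the rule for a tail. The deposited tables hold, per gene and library, raw read counts, counts of reads with a tail and mean tail length in nt, the last treated as a score because its definition is not stated. The deposited gene table holds, over all libraries pooled, the fraction of reads with a tail and coordinates, 5801 of 5813 of which (99.8%) were identical to RefSeq's R64. R64 was used for sequence windows, matched by locus name. The count table has 6532 entries and shares 6507 with the tail tables. 597 count entries that are merged genes or whose counts and gene-table reads (above 100) differed beyond 2-fold are called uncertain.

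Expression was tested with edgeR 4.0.16 (TMM, filterByExpr, quasi-likelihood F test), tail length with limma 3.58.1 (genes with 10 or more tailed reads per library, weighted by tailed reads up to 100, with a trended prior) and tailed share with edgeR on tailed and untailed counts (library as a term, at least 20 reads in every library). The share used the 4823 unmerged entries whose counts and reads agree within 10%. All 8 libraries entered each fit with 1 mean per group, and p-values were adjusted by Benjamini-Hochberg across every gene in a fit. edgeR's SE was taken as |log2 fold change| divided by √F, and limma's is its moderated SE. R 4.3.3 was used with DESeq2 1.42.0 as an alternative test. Motifs, counts and plots came from Python 3.11.15 with matplotlib 3.10.9, SciPy 1.17.1, NumPy 2.4.6 and pandas 2.3.3. The fits were tested on simulated data.

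Named genes followed a rule: the 10 largest rises and falls with at least 50 CPM, up to 4 called members of each list with the smallest p, called members against their list's trend, poly(A) factors, and the 6 largest changes in tail length and in share each way. Named outside it, after their values were seen, were the isozyme pairs, second arginine and VTC genes, IME1, ATG1, ATG32, PRB1, PEP4, MLS1, PCK1, ALA1, AAD10, FBA1, TPI1, TRP3, SER2, SER33, MYO1, HSP12, PHO84, SNF3, ATO3, the a-specific genes, motif examples, uncalled members and single noncoding RNAs. The gene lists and the comparison were chosen with earlier results of these data known. Replicate numbers were not taken to pair libraries, and intervals from counts cover counting error only.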

Additional observations from a re-analysis of the deposited data

How the results depend on the processing

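The number of genes called for expression was 3141 to 3775 under all alternatives, with 2947 calls shared between the main 3734 and the 3518 from tailed reads alone. For tail length, subtracting library medians left 410 calls, the 4 libraries alone 1288, and leaving out 1 library 685 to 1036; fewer samples enter those last fits. For tailed share, limma on log2 odds gave 627 calls, and leaving out 1 library 599 to 1470. The cause of the difference between the tests was not tested. The library difference in tailed share was −0.774 points over all entries and −3.00 to −1.33 leaving out 1 library; that in median tail was −2.06 nt as a read-weighted mean, −1.36 nt with fixed gene weights and −2.53 to −2.30 nt leaving out 1 library. These 3 library alternatives were added after seeing the data. With the replicate number as a block the calls were 3681, 1619 and 1090, but the libraries share only a number (correlation of deviations of Day 2 and Day 4, −0.0180). PAP1, not called, was 0.0099 with scaling to total counts and −0.24 to 0.24 leaving out 1 library. In tailed reads alone the sign changed for PAP1 (0.11), SNF1 (0.020), MSN4 (−0.18), FTR1 (0.019), MRPS17 (−0.28) and PIL1 (0.33). With library medians subtracted the median tail change of respiratory genes was 0.398 nt and of mitochondrial ribosomal proteins 0.165 nt. The cause was not tested. With 2 libraries a day, a day left with 1 library takes its spread from the other groups, and the fold changes of genes under 5 CPM have the least precision.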

Other observations

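Genes annotated with putative or unknown function were higher in 299 of 755 cases (39.6%, against 30.5% of all genes tested). In 141 cases they were lower (18.7%, against 32.4%). These genes had a median log2 fold change of 0.39 in expression and a median of 33.2 CPM on Day 2 and 37.0 CPM on Day 4. Only 2 entries of the mitochondrial chromosome passed the filter on low counts, the merged COB/BI2/BI3/BI4 entry with 2.50 and 2.34 CPM on Day 2 and 5.08 and 6.67 CPM on Day 4 (1.28 ± 0.51) and SCEI, at about 1 CPM or less on both days. Tailed reads on pseudogenes were higher in 4 of 6 tested entries, against 28.9% of all entries. Among the 4 was SDC25, with 110.2 and 86.4 tailed CPM on Day 2 and 551 and 590.1 tailed CPM on Day 4 (2.54 ± 0.17).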
